A study of Mus musculus with 24 samples.

Results

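Glycolysis breaks glucose down to pyruvate, and lactate dehydrogenase and the monocarboxylate carriers then decide whether pyruvate leaves the cell as lactate. The genes followed here are 31 mouse genes chosen by name for their place in this route: hexokinases, isomerases and aldolases, phosphofructokinase, the enzymes that make and remove fructose 2,6-bisphosphate, the lower steps from Gapdh to Pkm, the enzymes of 2,3-bisphosphoglycerate, lactate dehydrogenase, the lactate carriers, fructose-1,6-bisphosphatase and the ADP-dependent glucokinase. All 31 had a row in the table of 23017 genes. Their values were given by polyA RNA sequencing of C57BL/6J mouse brown adipose tissue in 4 groups of 6 samples. Vehicle mice received the carrier alone. LAGIPRA mice received an agonist of the receptor for the incretin hormone GIP, as the title of the series gives it. TZP mice received tirzepatide, a peptide that activates the receptors for GIP and for GLP-1. PairFedVehicle mice received the carrier with their food held to a set intake. No source used here states whose intake they were matched to, nor the dose, duration, diet or age. The labels do not say whether a sample is 1 animal or a pool. The p-values therefore rest on the spread between these samples, which may not be that between animals.

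Brown adipocytes burn fatty acids and glucose to make heat through the uncoupling protein Ucp1. Glucose taken up by brown fat feeds glycolysis, glycogen and the synthesis of fatty acids, and part of it leaves the tissue as lactate. Glycolysis is set mainly at hexokinase, phosphofructokinase and pyruvate kinase, and fructose 2,6-bisphosphate is the strongest activator of phosphofructokinase. Insulin and feeding raise the activity of the route in fat, and fasting lowers it.

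The deposited values were read as log2 values with an offset near 1, so log2 changes of weakly expressed genes are understated. Levels of different genes are not compared, except between a member and the rows that match its transcripts. Read totals are unknown. Ucp1 (mean log2 value 15.23), Cox8b (16.06) and Fabp4 (14.60) were high in all 24 libraries. Skeletal muscle was carried along unevenly. The mean of 16 muscle markers was 0.70 in Vehicle 1, 0.79 in TZP 3 and 0.58 in PairFedVehicle 5, against 4.08 to 10.43 in the other libraries. In bulk tissue, fewer cells of a type and less RNA per cell cannot be told apart. Fits were repeated with 1 covariate at a time: the mean of the muscle, of 12 macrophage or of 8 erythroid markers, the slope of expression on transcript length, or the one-read level, the most common low value of each library, used as a stand-in for depth. Some of these fits left few genes called at all. In LAGIPRA against Vehicle 2370 of 17263 genes passed, but 0 with the macrophage covariate and 45 with the one-read level. In TZP against Vehicle 3805 passed, but 175 with the length slope. A call lost in those fits is not particular to the member. Another limit lies in the rows themselves: transcripts of other rows match 8 members at 90% identity or more, described after the results by step.

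Many glycolysis genes were lowest in PairFedVehicle, below both freely fed Vehicle and the 2 drug groups. Against Vehicle, 9 of the 28 members that passed the filter on low values were lower in PairFedVehicle and 2 were higher. Over all 17263 genes tested, 3.66% were lower and 4.96% higher. The median log2 change of the 28 members was -0.23, and that of all genes 0.02. Against PairFedVehicle, 13 members were higher in LAGIPRA and 0 lower (7.3% and 4.55% of all genes), with a median change of 0.42 against -0.01 for all genes. In TZP, 13 members were higher and 1 lower than in PairFedVehicle (8.39% and 8.02% of all genes), with a median of 0.31 against -0.002 for all genes. Calls are from limma at a Benjamini-Hochberg adjusted p under 0.05 over all genes tested.

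Against freely fed Vehicle, few members passed. TZP had 3 higher and 0 lower, where 11.7% of all genes were higher and 10.3% lower, so the members' share was near the background or under it. The median change of the members was 0.14, and of all genes 0.04. LAGIPRA had 3 higher and 1 lower, where 8.7% of all genes were higher and 5.03% lower, with medians of 0.20 and 0.03. This count of 4 fell to 2 without Vehicle 1, 3 or 6, or without LAGIPRA 4, 5 or 6. In those runs the share of all genes called also fell, from 13.7% to between 5.47% and 8.06%. Each comparison with PairFedVehicle rests on the same 6 libraries of that group, and each comparison with Vehicle on the same 6 Vehicle libraries, so the comparisons are given side by side and are not independent.

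**Figure D1:**
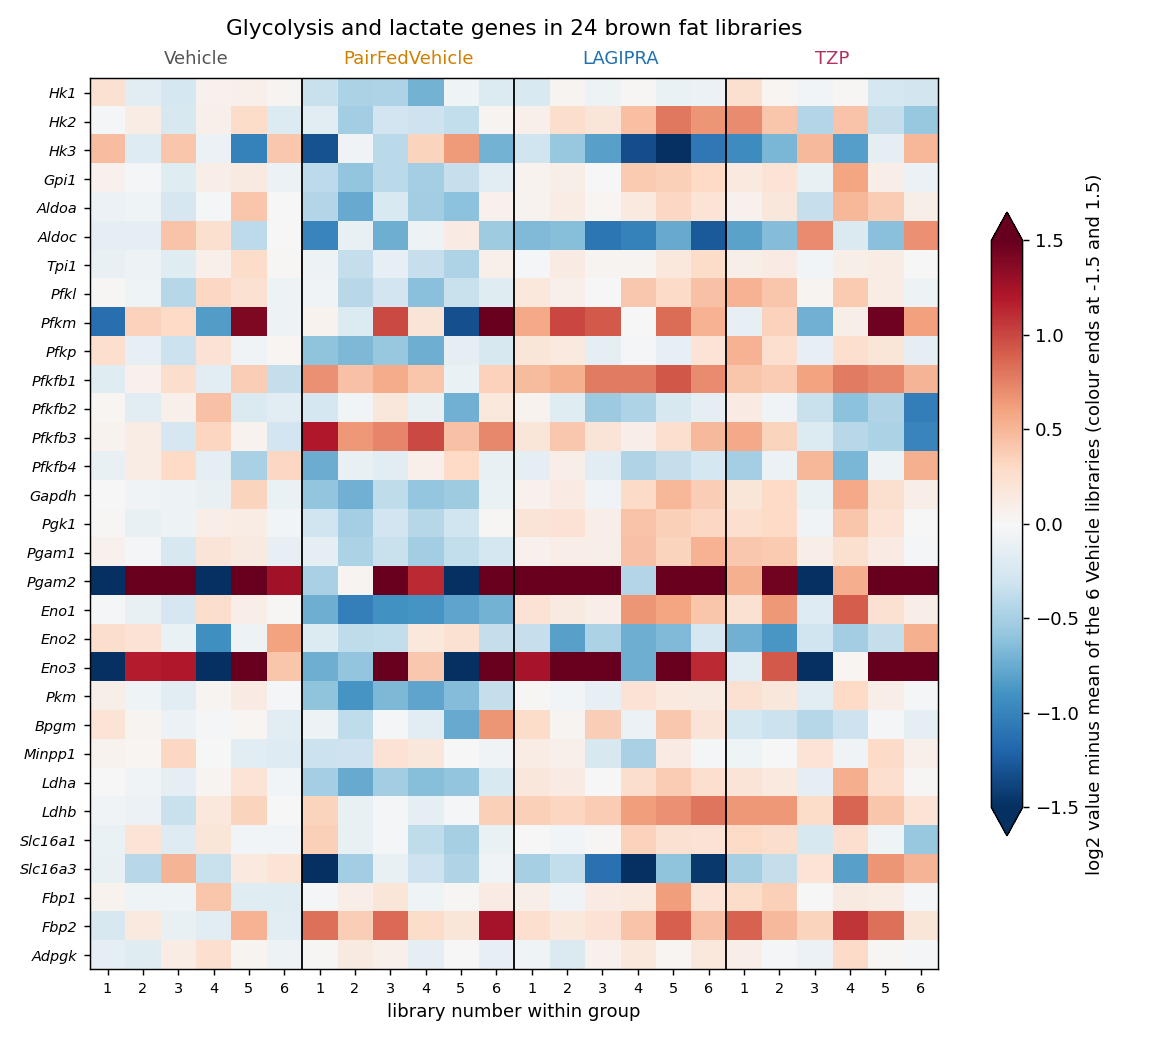
Colour gives the log2 value of each of the 31 members (rows, in the order of the steps) in each of the 24 libraries (columns) minus the mean of the 6 Vehicle libraries; red is higher, blue is lower, and colours stop at -1.5 and 1.5. Eno1, Pkm and Ldha are blue in all 6 PairFedVehicle libraries, while Pgam2 and Eno3 change from library to library within every group.

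The first step, phosphorylation of glucose, is carried out by hexokinases. Hk1, the broadly expressed hexokinase, ran from 7.74 to 8.23 in Vehicle (median log2 value 8.06), from 7.29 to 7.93 in PairFedVehicle (7.60), from 7.77 to 8.04 in LAGIPRA (7.92) and from 7.72 to 8.24 in TZP (7.99). PairFedVehicle was lowest, but its range overlapped all others. Hk1 was lower in PairFedVehicle than in Vehicle by a log2 change of -0.37 (SE 0.102, adjusted p = 0.0236) and higher in TZP than in PairFedVehicle by 0.33 (SE 0.102, adjusted p = 0.0313). The first call was lost without Vehicle 1 or PairFedVehicle 2, 3 or 4 (adjusted p from 0.0516 to 0.0642, changes from -0.36 to -0.31). The second was lost without TZP 1, 2 or 4 or PairFedVehicle 2, 3 or 4 (adjusted p from 0.05005 to 0.0898, changes from 0.26 to 0.31), and with the erythroid covariate (0.30, adjusted p = 0.0919) or the one-read level (0.26, adjusted p = 0.0763). In LAGIPRA the change against PairFedVehicle was 0.30 (adjusted p = 0.056). It passed without Vehicle 3, LAGIPRA 1, TZP 1, TZP 6, PairFedVehicle 5 or PairFedVehicle 6 (adjusted p from 0.025 to 0.0493, changes from 0.30 to 0.36).

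Hk2, the insulin-responsive hexokinase of muscle and fat, ran from 6.84 to 7.36 in Vehicle (median 7.10), from 6.55 to 7.12 in PairFedVehicle (6.78), from 7.15 to 7.87 in LAGIPRA (7.43) and from 6.51 to 7.79 in TZP (7.11). Every LAGIPRA library lay above every PairFedVehicle library, while TZP spanned both. The rise in LAGIPRA over PairFedVehicle was 0.67 (SE 0.185, adjusted p = 0.0197), a 1.59-fold difference. It was lost without LAGIPRA 5 or 6 or PairFedVehicle 2 (adjusted p from 0.0512 to 0.0585, changes from 0.59 to 0.62). With the macrophage covariate it was 0.38 (adjusted p = 0.0941), and with the one-read level 0.46 (adjusted p = 0.0852). TZP differed from PairFedVehicle by 0.30 (adjusted p = 0.296). Without TZP 3 to 6, which had the lowest slopes of expression on transcript length, that change was 0.83 (adjusted p = 0.00977) with only 2 TZP libraries left.

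Hk3, a hexokinase of myeloid cells, ran from 4.16 to 5.63 in Vehicle (median 5.33), from 3.86 to 5.81 in PairFedVehicle (4.94), from 3.58 to 4.87 in LAGIPRA (4.22) and from 4.23 to 5.66 in TZP (4.75). It did not pass in any comparison. LAGIPRA minus Vehicle was -0.94 (adjusted p = 0.0579), and this passed without Vehicle 5, LAGIPRA 1, PairFedVehicle 1 or PairFedVehicle 5 (adjusted p from 0.0175 to 0.0486, changes from -1.15 to -0.94). The mean of 12 macrophage and monocyte markers (Lyz2, C1qc and C1qb highest) ran from 7.39 to 8.43 in LAGIPRA. In Vehicle it ran from 7.99 to 9.22, and the difference did not pass (exact permutation p = 0.0173, adjusted p = 0.0742). By limma, 7 of the 12 were lower and 0 higher in LAGIPRA, where 5.03% and 8.7% of all genes were. With the macrophage marker mean as a covariate, Hk3 in TZP turned from -0.27 to 0.49 against Vehicle (adjusted p = 0.00523).

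The next steps turn glucose 6-phosphate into triose phosphates. Gpi1, glucose-6-phosphate isomerase, ran from 9.07 to 9.38 in Vehicle (median 9.27), from 8.66 to 9.10 in PairFedVehicle (8.85), from 9.25 to 9.64 in LAGIPRA (9.45) and from 9.14 to 9.84 in TZP (9.37). All libraries of both drugs lay above all PairFedVehicle libraries. Gpi1 fell by 0.40 on the log2 scale with pair feeding (SE 0.101, adjusted p = 0.0145). It was higher than in PairFedVehicle by 0.60 in LAGIPRA (SE 0.101, adjusted p = 0.000415) and by 0.54 in TZP (SE 0.101, adjusted p = 0.00111).

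Aldoa, the main aldolase of most tissues, ran from 8.45 to 9.12 in Vehicle (median 8.66), from 7.94 to 8.77 in PairFedVehicle (8.22), from 8.73 to 9.02 in LAGIPRA (8.83) and from 8.36 to 9.20 in TZP (8.83). The groups overlapped. Aldoa was higher than in PairFedVehicle by 0.56 in LAGIPRA (SE 0.134, adjusted p = 0.00789) and by 0.56 in TZP (SE 0.134, adjusted p = 0.00675). With pair feeding against Vehicle it changed by -0.42 (adjusted p = 0.0546), which passed without Vehicle 3, TZP 3, TZP 4 or PairFedVehicle 6 (adjusted p from 0.0146 to 0.0466, changes from -0.51 to -0.42). Without TZP 3 to 6 the TZP change was 0.54 (adjusted p = 0.0673), and with the length slope 0.51 (adjusted p = 0.0981).

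Tpi1, triose-phosphate isomerase, moved least of the called genes of these steps. It ran from 10.38 to 10.85 in Vehicle (median 10.53), from 10.11 to 10.63 in PairFedVehicle (10.33), from 10.55 to 10.85 in LAGIPRA (10.65) and from 10.53 to 10.69 in TZP (10.65). The changes over PairFedVehicle were 0.32 in LAGIPRA (SE 0.0825, adjusted p = 0.0124) and 0.28 in TZP (SE 0.0825, adjusted p = 0.0227). The TZP call was lost without PairFedVehicle 2, 4 or 5 (adjusted p from 0.058 to 0.0598, changes from 0.23 to 0.25) and without TZP 3 to 6 (0.32, adjusted p = 0.136). It was also lost with the length slope (0.297, adjusted p = 0.115), with the one-read level (0.24, adjusted p = 0.0514) and without the libraries low in muscle (0.25, adjusted p = 0.0601). The LAGIPRA change was 0.20 with the macrophage covariate (adjusted p = 0.0521), 0.299 with the erythroid covariate (adjusted p = 0.0507) and 0.28 with the one-read level (adjusted p = 0.0502). Against Vehicle, pair feeding gave -0.22 (adjusted p = 0.109), which passed without PairFedVehicle 6 (-0.27, adjusted p = 0.0345). Aldoc, the brain aldolase, was below the filter, at log2 values from 0.69 to 2.66 over all libraries.

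Phosphofructokinase commits the sugar to glycolysis. Pfkl, its liver subunit, ran from 9.64 to 10.38 in Vehicle (median 10.05), from 9.44 to 10.02 in PairFedVehicle (9.76), from 10.06 to 10.51 in LAGIPRA (10.29) and from 9.99 to 10.59 in TZP (10.32). LAGIPRA did not overlap PairFedVehicle. Pfkl was higher than in PairFedVehicle by 0.54 in LAGIPRA (SE 0.124, adjusted p = 0.0057) and by 0.55 in TZP (SE 0.124, adjusted p = 0.0045). Pair feeding gave -0.31 against Vehicle (adjusted p = 0.123), which passed without Vehicle 3 (-0.40, adjusted p = 0.0452).

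Pfkp, the platelet subunit, fell with pair feeding. It ran from 7.48 to 8.06 in Vehicle (median 7.80), from 7.08 to 7.68 in PairFedVehicle (7.23), from 7.67 to 8.02 in LAGIPRA (7.87) and from 7.67 to 8.33 in TZP (8.03). Only the highest PairFedVehicle library reached the range of the drug groups. The changes were -0.49 for PairFedVehicle against Vehicle (SE 0.124, adjusted p = 0.0147), 0.53 for LAGIPRA against PairFedVehicle (SE 0.124, adjusted p = 0.00654) and 0.65 for TZP against PairFedVehicle (SE 0.124, adjusted p = 0.00132).

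The 4 bifunctional enzymes that make and remove fructose 2,6-bisphosphate did not move together. Pfkfb3, the isoform with the highest kinase activity, ran from 5.94 to 6.55 in Vehicle (median 6.29), from 6.67 to 7.43 in PairFedVehicle (6.96), from 6.33 to 6.72 in LAGIPRA (6.46) and from 5.24 to 6.80 in TZP (5.92). It went against the enzymes of the pathway: all PairFedVehicle libraries lay above all Vehicle libraries. Pair feeding raised it by 0.79 (SE 0.189, adjusted p = 0.0103), a 1.73-fold difference. TZP was lower than PairFedVehicle by a log2 change of -0.99 (SE 0.189, adjusted p = 0.00135). TZP 3 to 6 held the low values, from 5.24 to 6.03, while TZP 1 and 2 were at 6.80 and 6.57. Without TZP 3 to 6 the change was -0.33 (adjusted p = 0.265), and with the length slope -0.42 (adjusted p = 0.126). LAGIPRA minus PairFedVehicle was -0.52 (adjusted p = 0.0776), which passed without TZP 1 or TZP 6 (adjusted p of 0.0403 and 0.0369).

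Pfkfb1, the liver and muscle isoform, was higher with both drugs. It ran from 4.32 to 5.04 in Vehicle (median 4.62), from 4.57 to 5.36 in PairFedVehicle (5.10), from 5.15 to 5.60 in LAGIPRA (5.41) and from 5.05 to 5.45 in TZP (5.23). Neither drug group overlapped Vehicle. The log2 change against Vehicle was 0.70 in LAGIPRA (SE 0.13, adjusted p = 0.00514) and 0.57 in TZP (SE 0.13, adjusted p = 0.00466). The TZP change was 0.40 without TZP 3 to 6 (adjusted p = 0.192), 0.51 with the erythroid covariate (adjusted p = 0.0516) and 0.43 with the length slope (adjusted p = 0.237). The LAGIPRA change was 0.48 with the macrophage covariate (adjusted p = 0.191) and 0.69 with the one-read level (adjusted p = 0.0637). Of all 17263 genes, 0 passed in the first of these fits and 45 in the second. PairFedVehicle was 0.39 above Vehicle (adjusted p = 0.0655), which passed without Vehicle 5 or PairFedVehicle 5 (0.46 and 0.49, adjusted p of 0.0265 and 0.0141). Pfkfb2 and Pfkfb4 lay between 2.14 and 3.996 over all libraries and passed in no comparison.

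The lower steps, from Gapdh to Pkm, return ATP and gave the clearest pattern: 5 of the 7 tested were lower with pair feeding, and the same number passed as higher in each drug group against PairFedVehicle. Over all genes tested, 3.66% were lower with pair feeding, and 7.3% (LAGIPRA) and 8.39% (TZP) were higher than in PairFedVehicle. All 5 have such matching rows. With these rows summed, Pgam1 lost all its calls and Pgk1 lost its call with pair feeding. Eno1, the ubiquitous enolase, ran from 7.67 to 8.17 in Vehicle (median 7.91), from 6.88 to 7.20 in PairFedVehicle (7.08), from 8.02 to 8.57 in LAGIPRA (8.23) and from 7.72 to 8.82 in TZP (8.14). No library of another group reached down to PairFedVehicle. Eno1 changed by -0.84 with pair feeding (SE 0.14, adjusted p = 0.000483), 1.79-fold lower. Against PairFedVehicle it was higher by 1.20 in LAGIPRA (SE 0.14, adjusted p = 7.19e-06) and by 1.16 in TZP (SE 0.14, adjusted p = 1.02e-05), 2.29-fold and 2.24-fold. TZP minus Vehicle was 0.32 (adjusted p = 0.104), which passed without TZP 3 (0.42, adjusted p = 0.0264).

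Pkm, muscle-type pyruvate kinase, makes the final ATP of the route and is also the pyruvate kinase of fat. It ran from 10.19 to 10.48 in Vehicle (median 10.36), from 9.47 to 9.995 in PairFedVehicle (9.70), from 10.23 to 10.57 in LAGIPRA (10.43) and from 10.19 to 10.66 in TZP (10.49). Again PairFedVehicle lay below every other library. The change was -0.66 with pair feeding (SE 0.0855, adjusted p = 2.71e-05), 0.72 for LAGIPRA against PairFedVehicle (SE 0.0855, adjusted p = 8.3e-06) and 0.76 for TZP against PairFedVehicle (SE 0.0855, adjusted p = 4.99e-06).

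Gapdh, which makes NADH at the first lower step, ran from 9.89 to 10.33 in Vehicle (median 9.93), from 9.27 to 9.89 in PairFedVehicle (9.44), from 9.95 to 10.49 in LAGIPRA (10.19) and from 9.89 to 10.57 in TZP (10.20). PairFedVehicle was lowest and met the bottom of the Vehicle and TZP ranges. Gapdh changed by -0.48 with pair feeding (SE 0.114, adjusted p = 0.00941), by 0.70 in LAGIPRA against PairFedVehicle (SE 0.114, adjusted p = 0.000315) and by 0.70 in TZP against PairFedVehicle (SE 0.114, adjusted p = 0.000341). With matching rows summed, the LAGIPRA and TZP changes were 0.38 and 0.42 (adjusted p of 0.00723 and 0.00302).

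Pgk1, phosphoglycerate kinase, makes the first ATP. It ran from 8.92 to 9.15 in Vehicle (median 9.03), from 8.53 to 9.06 in PairFedVehicle (8.74), from 9.14 to 9.46 in LAGIPRA (9.30) and from 8.98 to 9.45 in TZP (9.27). LAGIPRA lay above all PairFedVehicle libraries. Against PairFedVehicle, Pgk1 was higher by 0.57 in LAGIPRA (SE 0.0857, adjusted p = 0.000132) and by 0.48 in TZP (SE 0.0857, adjusted p = 0.000682). The fall with pair feeding was smaller, -0.30 (SE 0.0857, adjusted p = 0.031), and was lost without Vehicle 1, 4 or 5 or PairFedVehicle 1, 2, 3 or 4 (adjusted p from 0.0515 to 0.0783, changes from -0.30 to -0.26). LAGIPRA was also above Vehicle by 0.27 (SE 0.0857, adjusted p = 0.0408), and this was lost without Vehicle 1, 2, 3 or 6 or LAGIPRA 4, 5 or 6 (adjusted p from 0.0705 to 0.102, changes from 0.24 to 0.27) and with the macrophage covariate (0.09, adjusted p = 0.714). With matching rows summed, the changes against PairFedVehicle were 0.22 in LAGIPRA (adjusted p = 0.00754) and 0.18 in TZP (adjusted p = 0.0175). The summed change with pair feeding was -0.15 (adjusted p = 0.0764), and in LAGIPRA against Vehicle 0.07 (adjusted p = 0.383).

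Pgam1, the phosphoglycerate mutase of most tissues, ran from 11.63 to 12.05 in Vehicle (median 11.88), from 11.34 to 11.72 in PairFedVehicle (11.51), from 11.93 to 12.38 in LAGIPRA (12.08) and from 11.84 to 12.26 in TZP (12.05). Neither drug group overlapped PairFedVehicle. The changes were -0.35 with pair feeding (SE 0.0948, adjusted p = 0.0215), 0.61 for LAGIPRA against PairFedVehicle (SE 0.0948, adjusted p = 0.000178) and 0.56 for TZP against PairFedVehicle (SE 0.0948, adjusted p = 0.000465). The first was lost without Vehicle 4 or PairFedVehicle 2 or 4 (adjusted p from 0.05001 to 0.0533, changes from -0.33 to -0.31). LAGIPRA minus Vehicle was 0.26 (adjusted p = 0.0681), which passed without Vehicle 4, Vehicle 5 or LAGIPRA 1 (adjusted p from 0.0443 to 0.0493, changes from 0.28 to 0.30). With matching rows summed, Pgam1 changed by 0.06 with pair feeding (adjusted p = 0.664). Against PairFedVehicle the summed changes were 0.06 in LAGIPRA (adjusted p = 0.616) and 0.003 in TZP (adjusted p = 0.987).

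**Figure D2:**
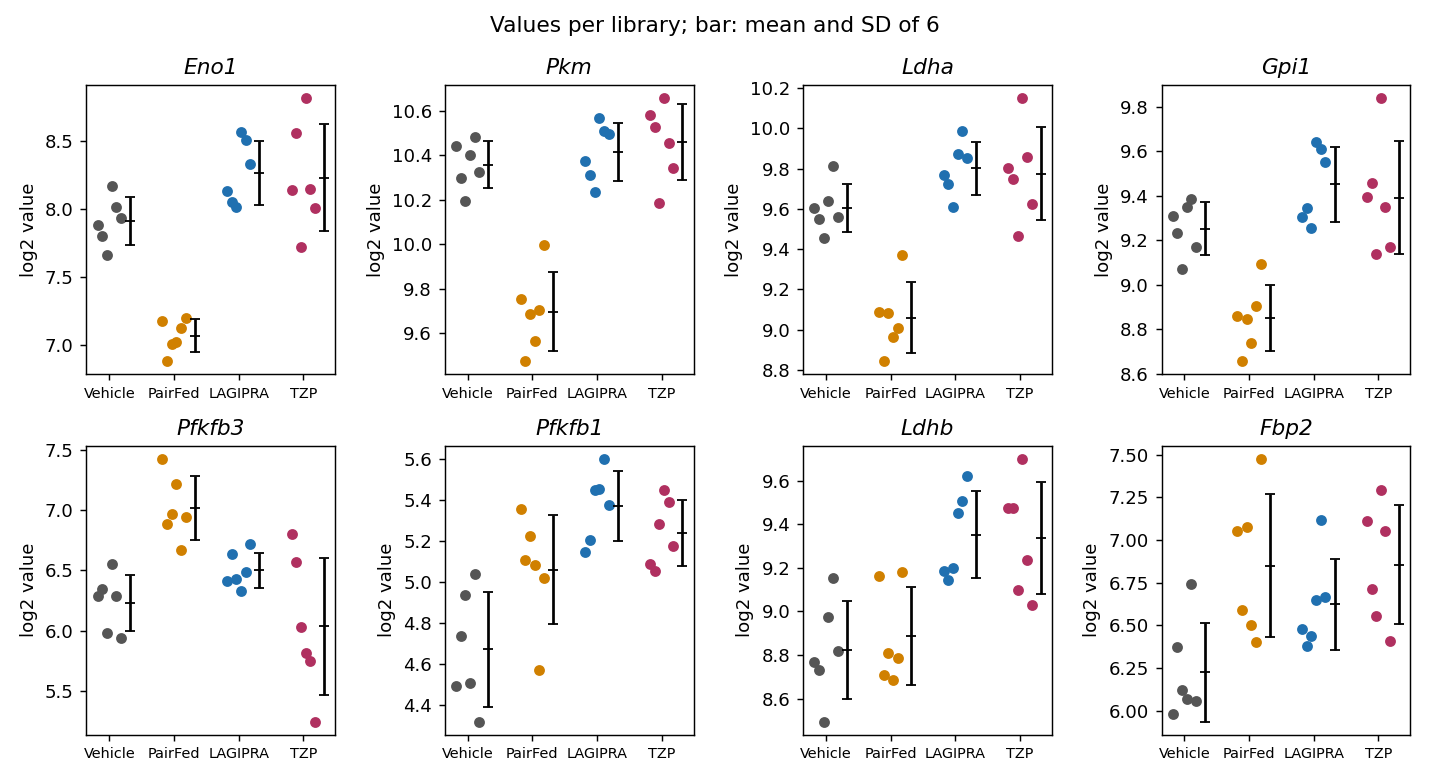
Log2 values (vertical axes, not starting at 0) of 8 members in each library of the 4 groups (horizontal axis), with the mean and SD of 6 libraries as a bar; PairFed stands for PairFedVehicle. For Eno1, Pkm and Ldha the 6 PairFedVehicle libraries lie below all others, and for Pfkfb3 they lie above all Vehicle libraries.

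Lactate dehydrogenase links pyruvate and lactate, its A subunit being the form of glycolytic tissue and its B subunit that of heart. Ldha ran from 9.46 to 9.81 in Vehicle (median 9.58), from 8.84 to 9.37 in PairFedVehicle (9.05), from 9.61 to 9.99 in LAGIPRA (9.81) and from 9.46 to 10.15 in TZP (9.77). All PairFedVehicle libraries were below all others. Ldha changed by -0.54 with pair feeding (SE 0.0964, adjusted p = 0.000951), by 0.74 in LAGIPRA against PairFedVehicle (SE 0.0964, adjusted p = 2.13e-05) and by 0.71 in TZP against PairFedVehicle (SE 0.0964, adjusted p = 4.13e-05). Neither drug group differed from Vehicle by the test (0.20 in LAGIPRA, adjusted p = 0.159, and 0.17 in TZP, adjusted p = 0.21).

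Ldhb followed another pattern, with PairFedVehicle at the level of Vehicle and both drug groups higher. It ran from 8.49 to 9.15 in Vehicle (median 8.79), from 8.69 to 9.18 in PairFedVehicle (8.80), from 9.15 to 9.62 in LAGIPRA (9.33) and from 9.03 to 9.70 in TZP (9.36). The ranges overlapped at their ends. Against Vehicle, Ldhb was higher by 0.53 in LAGIPRA (SE 0.126, adjusted p = 0.0126) and by 0.51 in TZP (SE 0.126, adjusted p = 0.00694). Against PairFedVehicle the changes were 0.46 in LAGIPRA (SE 0.126, adjusted p = 0.0182) and 0.45 in TZP (SE 0.126, adjusted p = 0.0177), while PairFedVehicle minus Vehicle was 0.07 (95% interval -0.20 to 0.33). The LAGIPRA call over PairFedVehicle was lost without LAGIPRA 6 (0.41, adjusted p = 0.0524) or PairFedVehicle 4 (0.42, adjusted p = 0.05011), and the TZP call without TZP 4 (0.37, adjusted p = 0.0542). With the macrophage covariate the LAGIPRA change was 0.18 over Vehicle (adjusted p = 0.424) and 0.25 over PairFedVehicle (adjusted p = 0.0592), and with the one-read level 0.28 and 0.31 (adjusted p of 0.203 and 0.0721). The TZP change over Vehicle was 0.46 with the erythroid covariate (adjusted p = 0.0679), 0.61 with the length slope (adjusted p = 0.108) and 0.29 with the one-read level (adjusted p = 0.0789), and over PairFedVehicle 0.42 with the erythroid covariate (adjusted p = 0.0579) and 0.52 with the length slope (adjusted p = 0.07004).

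The 2 lactate carriers differed. Slc16a1, the carrier MCT1, stayed between 10.19 and 11.12 over all libraries and passed in no comparison. Slc16a3, the carrier MCT4 of strongly glycolytic cells, was weakly expressed. It ran from 3.85 to 4.77 in Vehicle (median 4.28), from 2.63 to 4.21 in PairFedVehicle (3.88), from 2.74 to 3.89 in LAGIPRA (3.40) and from 3.45 to 4.93 in TZP (4.19). LAGIPRA was lower than Vehicle by a change of -0.93 (SE 0.287, adjusted p = 0.036), with 1 Vehicle library inside the LAGIPRA range. The call was lost without Vehicle 1, 3 or 6 or LAGIPRA 3, 4, 5 or 6 (adjusted p from 0.0556 to 0.0942, changes from -0.99 to -0.81), and the change was -0.44 with the macrophage covariate (adjusted p = 0.601) and -0.39 with the one-read level (adjusted p = 0.436).

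Fructose-1,6-bisphosphatase runs the phosphofructokinase step backwards. Fbp2, its muscle form, ran from 5.98 to 6.74 in Vehicle (median 6.09), from 6.40 to 7.48 in PairFedVehicle (6.82), from 6.38 to 7.12 in LAGIPRA (6.56) and from 6.41 to 7.29 in TZP (6.88). Vehicle was lowest, with 1 library inside the ranges of the other groups. Fbp2 was higher than in Vehicle by 0.63 in PairFedVehicle (SE 0.185, adjusted p = 0.0366) and by 0.63 in TZP (SE 0.185, adjusted p = 0.0182), and the change in LAGIPRA was 0.40 (adjusted p = 0.142). The PairFedVehicle call was lost without Vehicle 1, 3, 4 or 6 or PairFedVehicle 1, 3 or 6 (adjusted p from 0.0694 to 0.0906, changes from 0.50 to 0.61). The TZP call was lost without TZP 4 (0.54, adjusted p = 0.0523), and without TZP 3 to 6 the change was 0.69 (adjusted p = 0.106). It was 0.28 with the macrophage covariate (adjusted p = 0.139), 0.60 with the erythroid covariate (adjusted p = 0.109), 0.72 with the length slope (adjusted p = 0.181) and 0.496 with the one-read level (adjusted p = 0.114). Fbp1, the liver form, was below the filter, at 0.13 to 0.93.

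Outside the main line, Bpgm, which makes 2,3-bisphosphoglycerate in red cells, ran from 6.97 to 7.34 in Vehicle (median 7.14), from 6.38 to 7.80 in PairFedVehicle (7.02), from 7.05 to 7.54 in LAGIPRA (7.37) and from 6.70 to 7.11 in TZP (6.85). It passed in no comparison. LAGIPRA minus PairFedVehicle was 0.32 (adjusted p = 0.171), which passed without PairFedVehicle 6 (0.48, adjusted p = 0.00876). The mean of 8 erythroid markers (Hbb-bs, Hba-a1 and Hba-a2 highest) ran from 7.17 to 8.95 in TZP, from 8.93 to 10.52 in Vehicle, from 9.64 to 10.78 in LAGIPRA and from 7.83 to 10.71 in PairFedVehicle, and its part in the values of Bpgm was not tested beyond the covariate fit, in which Bpgm passed in no comparison. Minpp1, a phosphatase of 2,3-bisphosphoglycerate and inositol phosphates, and Adpgk, the ADP-dependent glucokinase, passed in no comparison. Eno2, the neuronal enolase, was below the filter.

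Pgam2, Eno3 and Pfkm varied with the muscle content of the library. Pgam2, muscle phosphoglycerate mutase, was at 0.77 to 2.14 in the 3 libraries with almost no muscle markers and at 4.89 to 10.65 in the other 21. Eno3, muscle enolase, was at 2.07 to 2.42 in those 3 libraries and at 3.07 to 7.98 elsewhere. Pfkm, the muscle subunit of phosphofructokinase, was at 5.29 to 5.89 in them and at 5.77 to 8.47 elsewhere.

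By group, Pgam2 ran from 0.77 to 10.64 in Vehicle (median 8.79), from 2.14 to 10.62 in PairFedVehicle (7.77), from 6.75 to 10.20 in LAGIPRA (9.51) and from 2.05 to 10.65 in TZP (8.18). The groups overlapped almost fully, and LAGIPRA held no library without muscle markers. Eno3 ran from 2.07 to 7.61 in Vehicle (median 5.98), from 2.42 to 7.98 in PairFedVehicle (5.08), from 4.45 to 7.33 in LAGIPRA (6.59) and from 2.37 to 7.73 in TZP (5.66). Pfkm ran from 5.48 to 8.01 in Vehicle (median 6.72), from 5.29 to 8.47 in PairFedVehicle (6.73), from 6.60 to 7.62 in LAGIPRA (7.31) and from 5.89 to 8.07 in TZP (6.83). None of the 3 genes passed in any comparison, and the intervals were wide: LAGIPRA minus Vehicle for Pgam2 was 1.996 (95% interval -1.22 to 5.22). Pkm did not follow the muscle markers: in the 3 low libraries Pkm was at 9.70 to 10.44, within the 9.47 to 10.66 of the others.

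**Figure D3:**
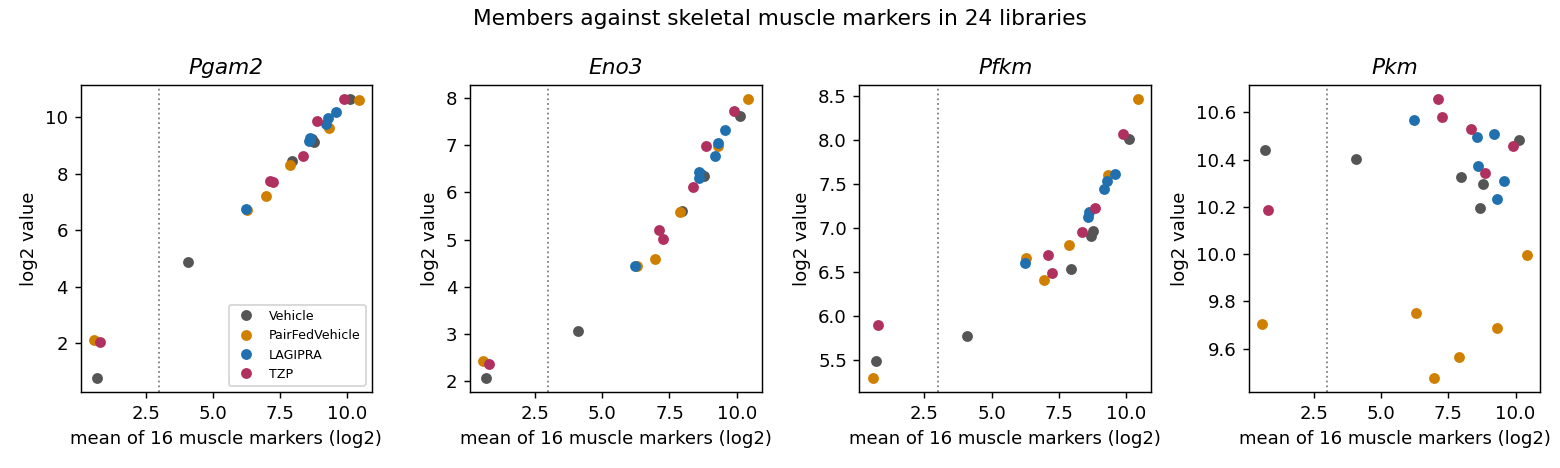
Log2 values of Pgam2, Eno3, Pfkm and Pkm (vertical axes) against the mean log2 value of 16 skeletal muscle markers (horizontal axes) in 24 libraries, coloured by group; the dotted line marks the limit of 3 used to call a library low in muscle. Pgam2 and Eno3 climb with the markers in every group, while Pkm separates the PairFedVehicle libraries at any marker level.

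Of the 28 tested members, 26 are set side by side in the plot of log2 changes, which leaves out Pgam2 and Eno3 for their wide intervals. In all 3 of its comparisons, intervals lay clear of 0 for Hk1, Gpi1, Aldoa, Tpi1, Pfkl, Pfkp, Gapdh, Pgk1, Pgam1, Eno1, Pkm and Ldha. These intervals were below 0 for PairFedVehicle minus Vehicle and above 0 for both drugs minus PairFedVehicle, comparisons that share the PairFedVehicle libraries. Those of Pfkfb3 were clear of 0 with the opposite signs. Intervals are not adjusted for the number of genes, and Hk1, Aldoa, Tpi1, Pfkl and Pfkfb3 did not pass in all 3 comparisons.

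**Figure D4:**
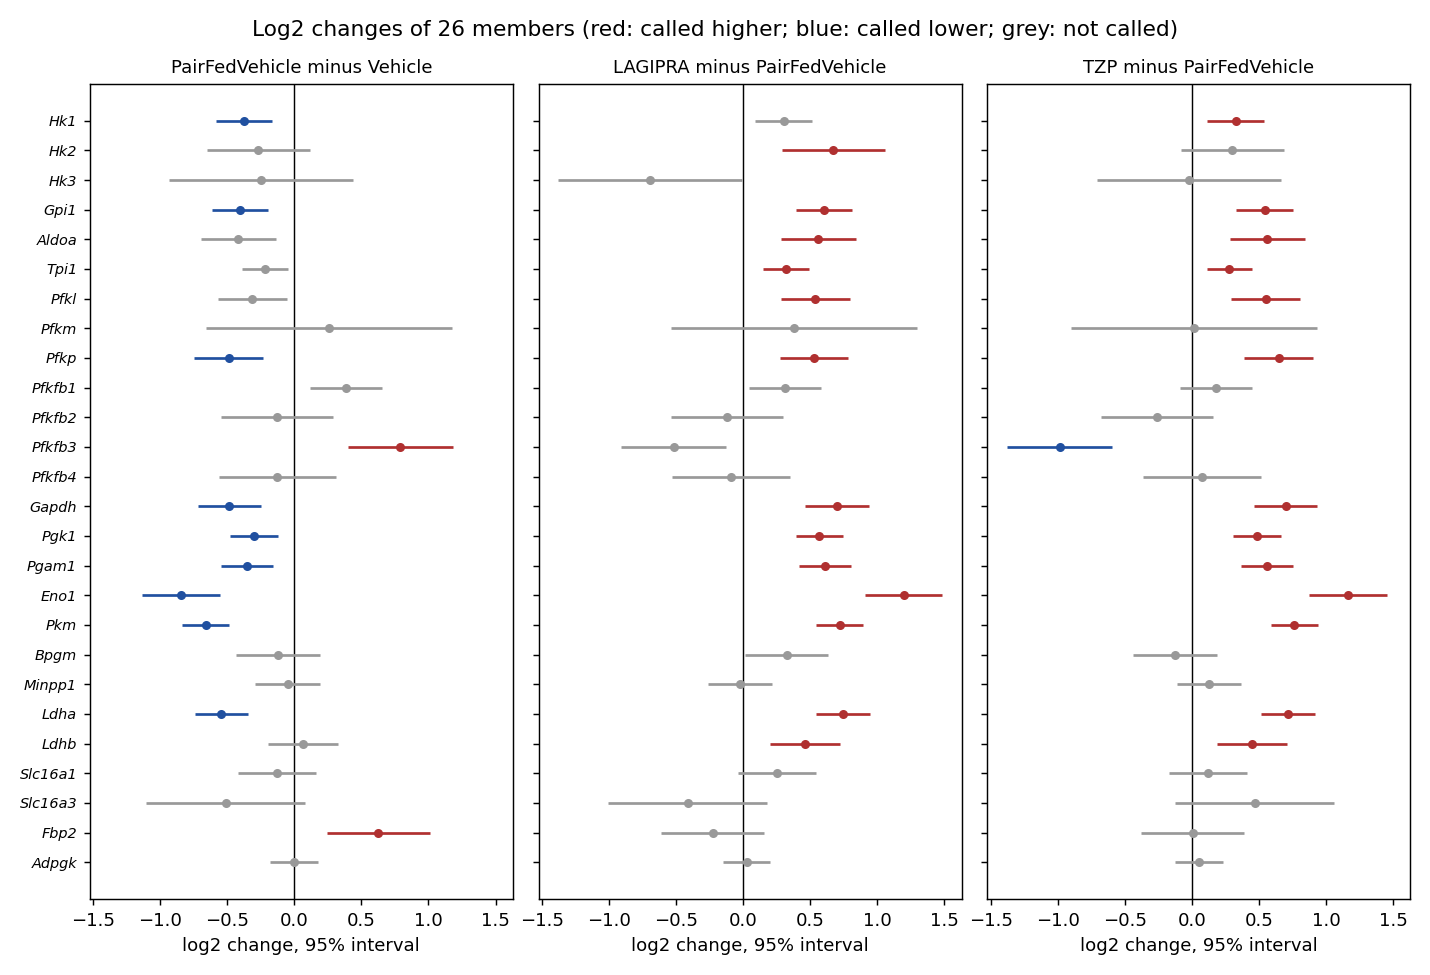
Log2 change (points) and 95% interval (bars) of 26 members in PairFedVehicle minus Vehicle, LAGIPRA minus PairFedVehicle and TZP minus PairFedVehicle, with red for called higher, blue for called lower and grey for not called. Eno1 has the largest called change in all 3 panels (-0.84, 1.20 and 1.16).

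The 2 drug groups were close to each other. TZP minus LAGIPRA gave 0 members higher and 0 lower by limma, where 0.0521% of all genes were higher and 0.348% lower, with a median change of -0.03 over the members and 0.01 over all genes. At an unadjusted p under 0.05 there were 3: Slc16a3 (0.88, 95% interval 0.29 to 1.47), Bpgm (-0.45, -0.76 to -0.14) and Pfkfb3 (-0.47, -0.86 to -0.08). Without TZP 1, Pfkfb3 passed (-0.62, adjusted p = 0.0335). For the genes with the largest changes the intervals were narrow: Eno1 -0.03 (95% interval -0.32 to 0.26), Pkm 0.04 (-0.13 to 0.22) and Ldha -0.03 (-0.23 to 0.17). Any difference within these intervals remains compatible with the values.

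Matching rows bear on 8 members. Transcripts of other rows matched Gapdh in 116 cases, Ldha in 10, Eno1 and Pkm in 5 each and Aldoa in 4. Pgk1 and Pgam1 had 2 matches each and Ldhb 1. The limit was 90% identity over at least 500 bases, so not all matches are close copies. The 4 Aldoa rows matched at 91.3% to 92.7%, and the Gapdh rows included Peli2 at 90.8%. Several of these rows held far larger values than the member: the highest Gapdh copy had a mean log2 value of 16.77 against 9.98 for Gapdh, and Eno1b had 15.64 against 7.87 for Eno1. No source used here states how reads were split between them, so these members' levels are uncertain.

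Each member's row was also added to its matching rows on the linear scale, an alternative chosen after seeing the data. The offset was not removed first. Some sums come mostly from the other rows: in Vehicle the mean of summed Eno1 was 16.57, against 7.91 for its own row. Eno1, Pkm, Ldha and Gapdh then kept their calls against PairFedVehicle and with pair feeding. For summed Eno1 these calls are mainly those of the other rows. The changes of Eno1, Gapdh and Pgk1 shrank. Pgk1 lost its calls with pair feeding and in LAGIPRA against Vehicle, and Pgam1 lost all its calls. Against PairFedVehicle, summed Eno1 was higher by 0.83 in LAGIPRA and 0.84 in TZP, where its own row gave 1.20 and 1.16. With pair feeding, summed Eno1 changed by -0.61 (adjusted p = 0.000638), summed Pkm by -0.64 (adjusted p = 4.58e-05), summed Ldha by -0.48 (adjusted p = 0.00256) and summed Gapdh by -0.30 (adjusted p = 0.0402). Against PairFedVehicle, summed Gapdh was higher by 0.38 in LAGIPRA and 0.42 in TZP, where its own row gave 0.70 in both, and summed Pgk1 by 0.22 and 0.18, where its own row gave 0.57 and 0.48. Summed Pgk1 changed by -0.15 with pair feeding (adjusted p = 0.0764), and in LAGIPRA against Vehicle by 0.07 (adjusted p = 0.383). Summed Pgam1 changed by 0.06 with pair feeding (adjusted p = 0.664), by 0.06 in LAGIPRA against PairFedVehicle (adjusted p = 0.616) and by 0.003 in TZP against PairFedVehicle (adjusted p = 0.987). Gpi1, Hk1, Hk2, Pfkl, Pfkp, Pfkfb1, Pfkfb3 and Fbp2 had no such rows.

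**Figure D5:**
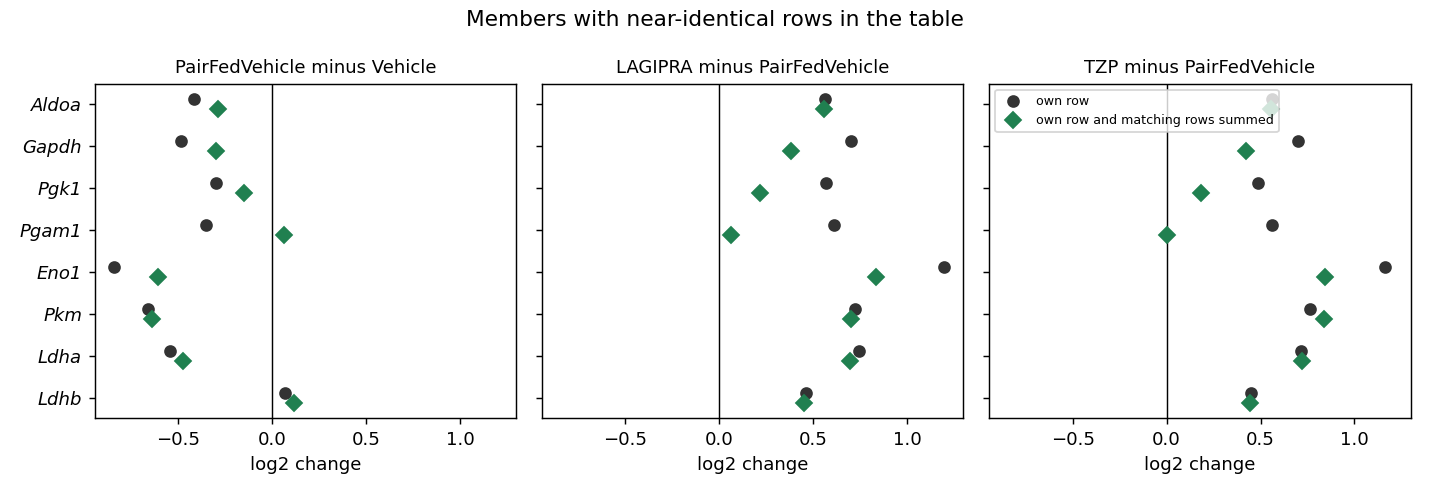
Log2 change (horizontal axes) in 3 comparisons of the 8 members with matching rows. Black circles give the member's own row, and green diamonds that row summed with its matching rows. Eno1, Pkm and Ldha stay on the same side of 0, and Pgam1 moves to about 0.

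Promoters are shown for Ldha, Pgk1 and Eno1, which moved together, and for Pfkfb3, which moved against them, because hypoxia-inducible factor and E-box factors are known regulators of glycolysis genes. The windows run from 250 bases before to 50 after the start in RefSeq (GRCm38.p6), 5′ to 3′ on the gene's strand. Ldha is on chr7:46845554-46845853, plus strand, Pgk1 on chrX:106186850-106187149, plus strand, Eno1 on chr4:150236458-150236757, plus strand, and Pfkfb3 on chr2:11502041-11502340, minus strand. Capitals mark matches to ACGTG on either strand, the core of the hypoxia response element. CACGTG, an E-box, holds this core on both strands and so counts as 2 matches.
Ldha: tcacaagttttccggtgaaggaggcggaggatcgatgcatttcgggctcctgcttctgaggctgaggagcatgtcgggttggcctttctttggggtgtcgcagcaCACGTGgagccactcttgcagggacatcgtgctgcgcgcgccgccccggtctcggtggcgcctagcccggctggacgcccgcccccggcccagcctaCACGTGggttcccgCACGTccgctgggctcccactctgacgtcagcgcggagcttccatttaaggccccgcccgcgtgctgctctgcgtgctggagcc
Pgk1: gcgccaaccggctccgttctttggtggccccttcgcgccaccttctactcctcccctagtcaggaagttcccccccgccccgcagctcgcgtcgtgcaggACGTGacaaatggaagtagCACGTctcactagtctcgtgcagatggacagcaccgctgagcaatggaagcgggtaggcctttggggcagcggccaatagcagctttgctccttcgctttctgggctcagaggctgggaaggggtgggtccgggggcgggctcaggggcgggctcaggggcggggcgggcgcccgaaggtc
Eno1: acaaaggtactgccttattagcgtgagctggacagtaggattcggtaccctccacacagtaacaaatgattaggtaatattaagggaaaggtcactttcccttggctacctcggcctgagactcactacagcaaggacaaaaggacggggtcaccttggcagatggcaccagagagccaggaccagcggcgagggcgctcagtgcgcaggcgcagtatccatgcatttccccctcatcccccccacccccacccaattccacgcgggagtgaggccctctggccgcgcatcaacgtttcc
Pfkfb3: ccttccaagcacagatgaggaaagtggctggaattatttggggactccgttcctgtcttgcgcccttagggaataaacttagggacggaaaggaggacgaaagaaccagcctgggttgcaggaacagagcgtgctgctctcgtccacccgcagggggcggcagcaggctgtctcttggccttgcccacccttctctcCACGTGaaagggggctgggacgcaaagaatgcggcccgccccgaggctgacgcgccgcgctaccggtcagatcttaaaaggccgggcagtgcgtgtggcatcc

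ACGTG was in 13 of the 31 member windows and in 19.6% of all 32851 windows of this length. CACGTG was in 6 of the 31 and in 7.15% of all. Ldha held 5 matches to ACGTG, Pgk1 and Pfkfb3 2 each, Gapdh and Pgam1 1 each, and Eno1 and Pkm 0. Among the members called lower with pair feeding, Ldha, Pgk1, Gapdh and Pgam1 had matches and Hk1, Gpi1, Pfkp, Eno1 and Pkm had none. Pfkfb3 and Fbp2, which rose, both had matches. A match is a run of letters and not a measured binding site, and Eno1 has 3 listed starts, of which 1 is shown.

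A further 4 lists of neighbouring genes, chosen by function, were read beside the members. Of 16 tested genes for glucose entry, pyruvate entry and NADH shuttles, 7 were higher in LAGIPRA and 6 in TZP than in PairFedVehicle, with 0 and 1 lower. Over all genes tested, 7.3% and 8.39% were higher and 4.55% and 8.02% lower in these comparisons. With pair feeding against Vehicle, 1 was higher and 2 were lower, where 4.96% and 3.66% of all genes were. Slc2a4, the insulin-regulated glucose transporter GLUT4, had median log2 values of 5.74 in Vehicle, 5.56 in PairFedVehicle, 6.69 in LAGIPRA and 6.48 in TZP. It was higher than in PairFedVehicle by 1.23 in LAGIPRA (adjusted p = 3.68e-05) and by 0.99 in TZP (adjusted p = 0.000454), and higher than in Vehicle by 0.996 and 0.75 (adjusted p of 0.00376 and 0.00382). Gpd1, which moves glycolytic NADH to the glycerol phosphate shuttle, was higher than in PairFedVehicle by 1.25 in LAGIPRA (adjusted p = 3.33e-05) and by 1.09 in TZP (adjusted p = 0.000183). Me1, malic enzyme, changed by -1.22 with pair feeding (adjusted p = 0.000609), and was higher than in PairFedVehicle by 1.34 in LAGIPRA (adjusted p = 0.000177) and 1.01 in TZP (adjusted p = 0.00233).

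Of 20 glycogen genes, 3 fell with pair feeding and 0 rose, and 7 were higher in LAGIPRA and 4 in TZP than in PairFedVehicle, with 0 lower. Over all genes tested, 3.66% fell and 4.96% rose with pair feeding. Against PairFedVehicle, 7.3% were higher and 4.55% lower in LAGIPRA, and 8.39% and 8.02% in TZP. The called glycogen genes included both synthesis and breakdown. Gys2, glycogen synthase, changed by -0.76 with pair feeding (adjusted p = 0.00645) and was higher than in PairFedVehicle by 1.19 in LAGIPRA and 1.18 in TZP (adjusted p of 6.82e-05 and 9.1e-05). Pygl, glycogen phosphorylase, changed by -0.87, 1.58 and 1.56 in the same comparisons (adjusted p of 0.0211, 0.000108 and 0.000142). Gbe1, the branching enzyme, changed by -0.54, 0.92 and 0.84 (adjusted p of 0.0158, 0.000135 and 0.000355).

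Targets of hypoxia-inducible factor outside glycolysis did not share 1 direction. Of 19 tested genes of that list, which also holds other regulators, 4 rose and 3 fell with pair feeding, and 6 were higher and 2 lower in each drug group than in PairFedVehicle. Over all genes tested, 4.96% rose and 3.66% fell with pair feeding. Against PairFedVehicle, 7.3% were higher and 4.55% lower in LAGIPRA, and 8.39% and 8.02% in TZP. Ankrd37, a hypoxia-induced ankyrin-repeat gene, ran from 1.08 to 3.63 in PairFedVehicle and from 3.82 to 4.90 in Vehicle. It changed by -2.10 with pair feeding (adjusted p = 0.000216), and was higher than in PairFedVehicle by 2.504 in TZP (adjusted p = 2.7e-05) and 1.44 in LAGIPRA (adjusted p = 0.00524). Bnip3, a mitophagy receptor induced by hypoxia, went the other way, by 0.88 with pair feeding (adjusted p = 4.7e-05), and by -0.70 in TZP and -0.66 in LAGIPRA against PairFedVehicle (adjusted p of 0.000498 and 0.000752). Myc, a transcription factor that drives glycolysis genes, was lower than in Vehicle in all 3 other groups, by a change of -0.64 in PairFedVehicle (adjusted p = 0.0179), -0.88 in LAGIPRA (adjusted p = 0.00514) and -0.54 in TZP (adjusted p = 0.0247).

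Among 12 tested genes of other isoforms and of gluconeogenesis, 3 rose and 0 fell with pair feeding, 1 was higher and 1 lower in LAGIPRA, and 1 was higher and 2 were lower in TZP than in PairFedVehicle. Over all genes tested, 4.96% rose and 3.66% fell with pair feeding. Against PairFedVehicle, 7.3% were higher and 4.55% lower in LAGIPRA, and 8.39% and 8.02% in TZP. The 1 gene higher in each drug group and the 1 lower in LAGIPRA were near this background. Pck2, mitochondrial phosphoenolpyruvate carboxykinase, rose by 0.36 with pair feeding (adjusted p = 0.0266) and was lower in LAGIPRA and TZP than in PairFedVehicle, by changes of -0.62 and -0.47 (adjusted p of 0.000233 and 0.00303). Gapdhs, the sperm form of Gapdh, rose by 0.65 with pair feeding (adjusted p = 0.0116). Ldhd, D-lactate dehydrogenase, was higher than in Vehicle by 0.48 in LAGIPRA and 0.39 in TZP (adjusted p of 0.0126 and 0.0195). Against Vehicle, these 4 lists in the order given had 6, 4, 4 and 2 genes higher in LAGIPRA and 6, 1, 5 and 2 in TZP, with 1, 0, 1 and 0 and then 0, 0, 3 and 0 lower. Over all genes tested, 8.7% were higher and 5.03% lower in LAGIPRA and 11.7% and 10.3% in TZP, so in TZP the 1 of 20 glycogen genes was under the background and the 2 of 12 isoform genes near it.

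Markers of other cells moved with some of these comparisons. The mean of the 6 neutrophil markers with a row (S100a9, S100a8 and Mmp9 highest) ran from 3.94 to 4.81 in PairFedVehicle, from 3.48 to 4.12 in Vehicle, from 3.19 to 4.34 in LAGIPRA and from 3.18 to 4.17 in TZP. TZP differed from PairFedVehicle in that mean by an exact permutation test (p = 0.00433, adjusted p = 0.0433 over 60 tests). By limma, 1 of the 6 was lower and 0 higher in TZP, where 8.02% and 8.39% of all genes were. The mean of 11 endothelial markers (Cldn5, Cd93 and Cdh5 highest) ran from 6.89 to 7.67 in TZP. In PairFedVehicle it ran from 7.80 to 7.98 (exact permutation p = 0.00216, adjusted p = 0.026). By limma, 9 of the 11 were lower and 0 higher in TZP, where 8.02% and 8.39% of all genes were. The endothelial mean was also lower in TZP than in Vehicle (7.30 against 7.92, exact permutation adjusted p = 0.026) and than in LAGIPRA (7.79, adjusted p = 0.026). It was slightly lower in LAGIPRA than in Vehicle (7.79 against 7.92, exact permutation adjusted p = 0.0487). By limma, 8 of the 11 markers were lower and 0 higher in TZP than in Vehicle, where 10.3% and 11.7% of all genes were. Against LAGIPRA, 1 was lower and 0 higher in TZP, where 0.348% and 0.0521% of all genes were. In LAGIPRA against Vehicle, 1 was lower and 1 higher, near the shares of all genes (5.03% and 8.7%). The erythroid marker mean was lower in TZP than in Vehicle (7.90 against 9.44, exact permutation adjusted p = 0.0487) and than in LAGIPRA (10.02, adjusted p = 0.026). With it as a covariate, none of Pfkfb1, Ldhb and Fbp2 passed in TZP against Vehicle. The slope of expression on transcript length, a sign of RNA quality, was also lower in TZP than in Vehicle (mean -0.0535 against 0.0359, exact permutation p = 0.00216, adjusted p = 0.026), and TZP 3 to 6 were lowest. The endothelial mean was lowest in the same libraries, at 7.44, 7.22, 6.99 and 6.89 in TZP 3 to 6. It was 7.62 and 7.67 in TZP 1 and 2. Whether RNA quality lowered the endothelial markers was not tested. The part of neutrophil and endothelial markers in the members' changes was not tested. Without TZP 3 to 6, or with the slope as a covariate, Eno1, Pkm, Ldha, Gapdh, Gpi1, Pfkl, Pfkp, Pgk1 and Pgam1 still passed in TZP against PairFedVehicle.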

How the data were processed

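RNA was taken with TRIzol and a lipid tissue kit and selected for polyA, per the labels' protocols. The submitters' processing notes name cutadapt 1.9.1 and GSNAP, with no role given; no source used here names the build, annotation, counter or strand setting. The authors deposited 1 value per gene and library, read here as log2 values with an offset near 1 that had been brought to like distributions, a scale inferred from the values (-0.5 to 22.35). Depth is therefore unknown, and precision rests on 6 samples a group. Genes in the lowest 25% by mean (under 2.86) were left out. The other 17263 were fitted in 1 limma model (3.58.1, R 4.3.3) over 4 groups with a mean-variance trend, giving 6 comparisons with Benjamini-Hochberg adjustment and a threshold of 0.05. Markers were compared by two-sided exact permutation tests. Matching transcripts were found with blastn 2.17.0. The code was tested on simulated data. Every member is described. Other genes are named by a rule: up to 3 called genes of each list with the smallest p, and the 3 markers of each list with the highest mean. The members and lists were chosen with earlier results of these data known.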

Additional observations from a re-analysis of the deposited data

Results flagged for a closer look

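In 6 of 124 groups of 6 libraries, 1 library stood apart by Dixon's ratio at its 95% critical value, where chance gives about 1 in 20 groups. Aldoa in Vehicle 5 was at a log2 value of 9.12, with the nearest Vehicle library at 8.70. Gapdh in Vehicle 5 was at 10.33, with the nearest at 9.99. Pgam2 in LAGIPRA 4 was at 6.75, with the nearest at 9.17, and Eno3 in the same library was at 4.45, with the nearest at 6.30. Pgam2 in TZP 3, a library with almost no muscle markers, was at 2.05, with the nearest at 7.73. Slc16a3 in PairFedVehicle 1 was at 2.63, with the nearest at 3.75.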

How the results depend on the processing

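The counts of called members in PairFedVehicle against Vehicle and in both drug groups against PairFedVehicle stayed within 1.5 times under each alternative run, and ran from 8 to 12, 12 to 14 (TZP) and 11 to 15 (LAGIPRA) when 1 library was left out. TZP against Vehicle (3 called) gave 0 with the erythroid or the length slope covariate, 1 without TZP 3 to 6 and 1 with the one-read level, a stand-in for depth, as covariate, and ran from 2 to 4 when 1 library was left out. LAGIPRA against Vehicle (4 called) gave 9 with sample weights, 8 with the length slope covariate, 7 without TZP 3 to 6, 2 without the libraries low in muscle, and 0 with the macrophage or the one-read level covariate, and ran from 2 to 6. TZP against LAGIPRA (0 called, and 0.40% of all genes) gave 2 with sample weights, Pfkfb3 and Slc16a3, where 6.2% of all genes passed. It ran from 0 to 1 when 1 library was left out. Pgam1 in PairFedVehicle against Vehicle turned to 0.06196 when matching rows were summed. The cause of these changes was not tested. Samples that share a replicate number were not paired: over 36 such pairs the correlation of deviations ran from -0.60 to 0.38, 12 were over 0.1, and 1 of 24 samples correlated best with its own number. With the replicate block the counts were 3 and 4 (TZP and LAGIPRA against Vehicle), 10 (PairFedVehicle against Vehicle), 13 and 13 (TZP and LAGIPRA against PairFedVehicle) and 0 (TZP against LAGIPRA). The block ended 2 calls, Fbp2 in PairFedVehicle against Vehicle (adjusted p = 0.0628) and Hk1 in TZP against PairFedVehicle (adjusted p = 0.0515).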
